A study of Homo sapiens with 31 samples.

Results

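The LARP1 knockdown effect on eIF4A1 capture was measured in 7 of the 31 libraries of the series, selected by the labels as the siRNA pulldown experiment. The cells were HEK293 T-REx, an established human line from embryonic kidney, and expressed eIF4A1 fused to a streptavidin-binding peptide (SBP-eIF4A1). Cells received Control siRNA (siControl) or LARP1 siRNA (siLARP1) for 72 h, and no PP242. The fusion was pulled down with streptavidin beads and released by biotin, and its RNA was sequenced, as was RNA of the input lysate. There were 2 siControl inputs, 2 siControl pulldowns, 2 siLARP1 inputs and 1 siLARP1 pulldown. The labels do not say whether replicates were separate cultures, so spread between them may be technical. Untagged cells were not analysed here, so RNA that binds the beads themselves is part of every pulldown value. Other libraries of the series served only to group transcripts or as a reference. They came from SBP-eIF4A1 and SBP-eIF4A2 cells without siRNA. Ribosome footprints came from naive, EIF4A1 knockout (KO) and EIF4A2 KO cells with DMSO or PP242.

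eIF4A1 is the DEAD-box RNA helicase of the cap-binding complex eIF4F, which prepares mRNAs for the small ribosomal subunit. LARP1 is an RNA-binding protein that holds the cap and the adjoining pyrimidine tract of terminal oligopyrimidine (TOP) mRNAs, a class that includes those of ribosomal proteins and elongation factors. It represses their translation when the kinase mTORC1 is inhibited and is also known to protect them from decay. The series title places eIF4A1 in LARP1-mediated repression, and this experiment asks which mRNAs SBP-eIF4A1 captures when LARP1 is depleted.

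The quantity described is the capture change. Enrichment is the log2 level in a pulldown minus the mean log2 level of the inputs with the same siRNA, and the capture change is the siLARP1 enrichment minus the siControl enrichment. Levels are CPM, counts scaled to the same total in every library, with 0.5 counts added before the logarithm. Of 77343 transcripts with distinct counts across the series, 41619 had a mean of at least 100 counts over the 7 libraries and are described; they stand for about 13418 loci. Counts were made per Ensembl transcript, and the IDs were not matched to gene names, so neither LARP1 nor EIF4A1 could be followed and the knockdown rests on the labels. For the same reason the markers of the HEK293 line were not checked, no gene list was counted, and no sequence is shown.

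The 7 libraries held 35293504 to 50246497 counts over distinct transcripts, and the described transcripts had median counts of 275 to 468 per library. The top 10 transcripts of each library held 2.93% to 3.90% of all counts in the 4 inputs and 1.08% to 1.20% in the 3 pulldowns. Replicates differed beyond counting noise, with a chi-square per degree of freedom of 8.83 between the siControl inputs, 17.5 between the siControl pulldowns and 19.5 between the siLARP1 inputs, so no library was a copy of another. With 1 siLARP1 pulldown the capture change is given without a test. Its stability is shown by 8 combinations, each of which takes 1 siControl pulldown, 1 siControl input and 1 siLARP1 input with the siLARP1 pulldown.

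LARP1 knockdown left the overall pattern of capture nearly as it was. Across the described transcripts the siControl and siLARP1 enrichments, which share no library, correlated with a Pearson r of 0.966 and a Spearman rho of 0.964. The pairs siControl pulldown 1 over input 1 and siControl pulldown 2 over input 2 correlated with an r of 0.969 and a rho of 0.968. Isoforms of a locus share reads, so transcripts are no replicates and these values describe the libraries only. Enrichment itself spanned a wide range, with an SD over transcripts of 1.18 in siControl and 1.17 in siLARP1.

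**Figure D1:**
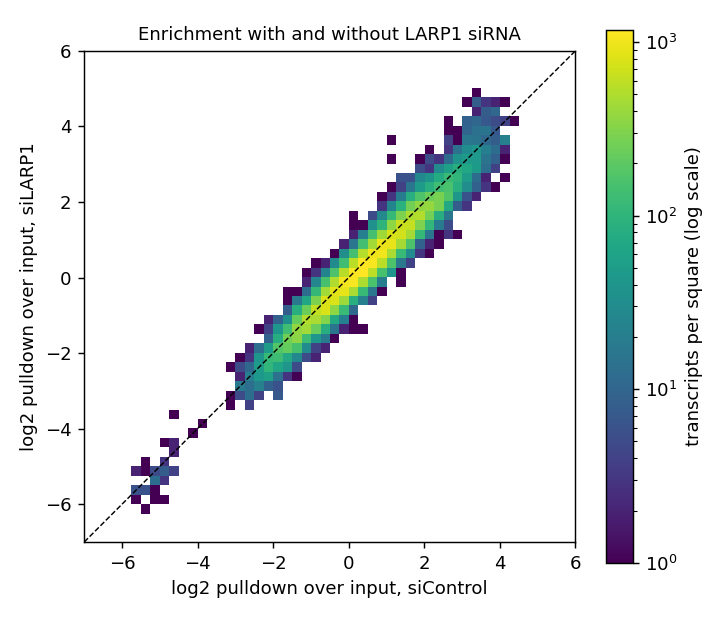
Log2 enrichment (pulldown over input) of 41619 transcripts with siControl (x axis) and with siLARP1 (y axis); colour gives the number of transcripts in each square on a log scale, and the dashed line marks equal enrichment. The cloud follows the line, with a Pearson r of 0.966, and a small group of strongly depleted transcripts lies apart at the lower left in both.

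The capture change had an SD of 0.31 over transcripts, and its quartiles were -0.33 and 0.06. The difference of the siControl enrichments of numbers 1 and 2 had an SD of 0.31 as well. These 2 measures are not alike. The siControl difference takes single libraries, while the capture change averages 2 libraries in every term but the siLARP1 pulldown, which narrows it. At a mean of at least 500 counts the SD was 0.26 for the capture change and 0.25 for the siControl difference. Propagating the replicate SDs of single libraries (0.21 for the siControl inputs, 0.22 for the siControl pulldowns and 0.25 for the siLARP1 inputs, with the siLARP1 pulldown taken to vary like the siControl pulldowns) gave 0.36 for the capture change. That figure treats libraries as independent, although deviations of same-numbered siControl pulldowns and inputs correlated at 0.48. In the 8 combinations the SD was 0.35 to 0.49.

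The median capture change was -0.14, and 67.9% of transcripts lay below 0. That offset depended on the scaling: with TMM factors in place of library totals the median moved by 0.12, to -0.02, and 52.5% lay below 0. The median siControl enrichment moved by -0.39. Scaling moves every capture change by the same amount, so differences between groups of transcripts do not depend on it. All values are given on library totals, and TMM factors would add 0.12 to each capture change.

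**Figure D2:**
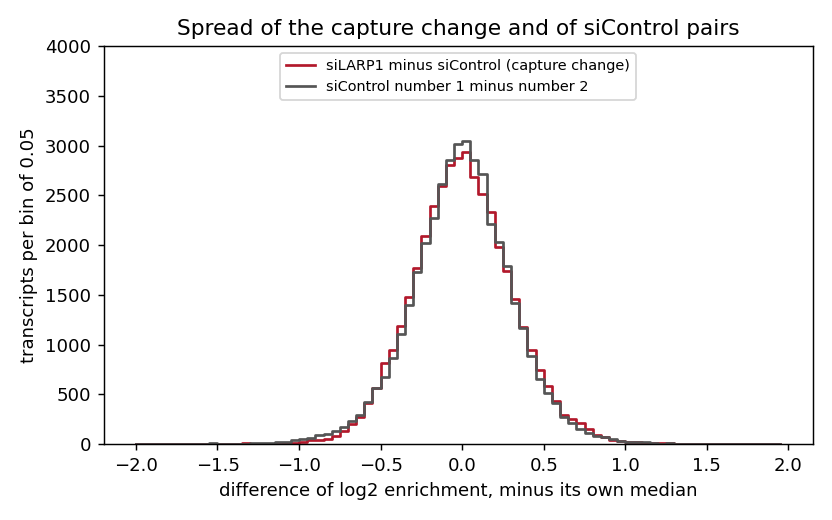
Number of transcripts (y axis) by the difference of log2 enrichment minus its own median (x axis, bins of 0.05), for siLARP1 minus siControl and for siControl number 1 minus number 2. The curves lie almost on each other, each with an SD of 0.31.

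Few single transcripts stood far out. A capture change of at least 1 log2 unit was seen for 57 transcripts in the higher direction (0.137% of those described) and 128 in the lower (0.308%). The siControl difference of numbers 1 and 2, which takes single libraries, was as large for 94 and 195 transcripts. With TMM factors the split of the capture change was 103 higher and 51 lower, so its majority direction followed the scaling. Leaving out siControl input replicate 1 gave 633 lower, and leaving out siLARP1 input replicate 1 gave 125 higher and 598 lower. Without siControl input replicate 2 there were 92 higher, without siControl pulldown replicate 1 there were 120 higher, and without siControl pulldown replicate 2 there were 88 higher and 287 lower.

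Transcripts past this fold were of low count. Their median mean count was 151 for the 57 higher and 176 for the 128 lower ones, against 405 for all described transcripts. Only 1 of the higher and 10 of the lower had a mean of 500 counts or more. Requiring at least 1 log2 unit in all 8 combinations left 3 higher (0.00721%) and 9 lower (0.0216%), and none of these had 500 counts. Among the 128 lower transcripts, the change between the pulldowns was larger than that between the inputs for 32. It was larger for 37 of the 57 higher ones and for 16354 of all 41619 described. The 128 lower transcripts had a median input term (siLARP1 input minus siControl input) of 0.92. Their median pulldown term (siLARP1 pulldown minus siControl pulldown) was -0.24. The 57 higher transcripts had medians of -0.43 for the input term and 0.66 for the pulldown term. The signs of these medians follow in part from picking transcripts by their capture change.

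The 4 transcripts named here had at least 500 counts on average and the capture change that stayed farthest from 0 in all 8 combinations, 2 in each direction. Their narrow ranges over the combinations, and the separation of their siControl and siLARP1 libraries, follow in part from that choice. ENST00000617998.5 had the highest such value. It stood at 12.2 and 12.3 CPM in the siControl inputs and 15.7 and 15.3 in the siLARP1 inputs. In the siControl pulldowns it stood at 61.1 and 59.2, and in the siLARP1 pulldown at 120.5. With siLARP1 it was thus higher in the pulldown and, by less, in both inputs, and neither pair of groups overlapped. The pulldown term was 1.00 and the input term 0.34.

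The capture change of ENST00000617998.5 was 0.66, and 0.61 to 0.72 over the 8 combinations. On the TMM scale of the test its input difference was 0.14 and did not pass (SE 0.19, edgeR adjusted p 0.819, Benjamini-Hochberg over 65793 transcripts). ENST00000653680.1, the other higher transcript, had 2670 counts in siControl pulldown 1 where ENST00000617998.5 had 2664, and almost equal counts elsewhere. The pair therefore counts as 1 observation of shared reads. Its counted length ranked at percentile 98.3 of the described transcripts.

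ENST00000601492.5 had the lowest such value. It stood at 181 and 179 CPM in the siControl inputs and 151 and 179.7 in the siLARP1 inputs. It stood at 78.1 and 79.0 in the siControl pulldowns and 36.1 in the siLARP1 pulldown. Its inputs overlapped between the siRNAs, and its siLARP1 pulldown lay below both siControl pulldowns. The capture change was -0.99, with -1.13 to -0.85 over the combinations, from a pulldown term of -1.12 and an input term of -0.13. On the TMM scale of the test its input difference was -0.32 and did not pass (SE 0.18, edgeR adjusted p 0.434).

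In naive cells, footprints of ENST00000601492.5 stood at 241 and 247 CPM in DMSO, 46.1 with 1 µM PP242 and 63.7 with 10 µM PP242. PP242 inhibits the mTOR kinase, and footprints are the fragments that ribosomes protect, so they follow translation. Its length ranked at percentile 7.64. In cells with SBP-eIF4A1 and no siRNA it was enriched, with 715 and 671 CPM in the pulldowns against 280 and 264 in the inputs.

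ENST00000258341.5, the other lower transcript, differed in the inputs. It stood at 23.5 and 22.8 CPM in the siControl inputs and 57.9 and 61.3 in the siLARP1 inputs, so the input groups did not overlap. In the pulldowns it stood at 54.9 and 54.5 with siControl and 76.8 with siLARP1. Its input level rose by 1.16 log2 units on the TMM scale (SE 0.18, edgeR adjusted p 0.000682, with 0.939% of tested transcripts called in either direction), and this call held in all 11 alternative settings, which included leaving out each of the 4 inputs. This transcript was picked for a capture change that stayed far from 0 with each input taken alone. The stability of its input difference was therefore in part set by that choice. On library totals, the scale of the capture change, the input term was 1.36 and the pulldown term 0.49. The capture change was -0.87, with -0.94 to -0.81 over the combinations. Without siRNA, ENST00000258341.5 and ENST00000617998.5 were depleted with SBP-eIF4A1, at -1.51 and -1.44. Their siControl enrichments were 1.24 and 2.29. Their footprints in naive cells were not lower with PP242, with changes of 0.19 and 0.40.

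**Figure D3:**
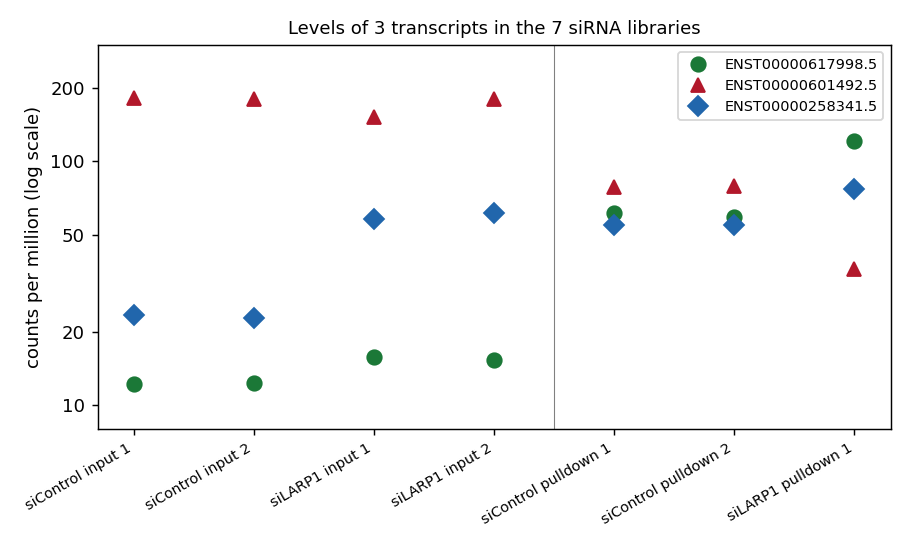
CPM (y axis, log scale) of 3 transcripts in the 4 input and 3 pulldown libraries; 1 point is 1 library. ENST00000617998.5 (circles) is at 120.5 in the siLARP1 pulldown against 61.1 and 59.2 with siControl, ENST00000601492.5 (triangles) is at 36.1 against 78.1 and 79.0, and ENST00000258341.5 (diamonds) is higher in both siLARP1 inputs.

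To see which kinds of transcript differed, the capture change was set against 5 properties, each cut into 5 classes of equal size from lowest to highest. Longer transcripts had the lower values. The median was -0.09 in the shortest class, then -0.10, -0.11 and -0.15, and -0.22 in the longest. The longest class had a median input term of 0.30 and a median pulldown term of 0.10, so the siLARP1 inputs held more of the long transcripts and the pulldown did not follow in full. The shortest class had 0.04 and -0.01. The longest class minus the shortest was -0.13, with -0.18 to -0.06 when single libraries were left out. It was -0.06 without siControl pulldown replicate 2 and -0.07 without siLARP1 input replicate 1. Over the 8 combinations this difference had an SD of 0.09. The class medians ran from -0.33 to -0.10 in the longest and from -0.12 to -0.05 in the shortest, so these ranges overlapped.

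By level, the median was -0.11 in the lowest class and -0.17 in the highest. That difference of -0.06 was -0.01 without siControl input replicate 1 and -0.11 without siControl input replicate 2, where the difference by length was -0.11 too. The spread of the capture change narrowed from an SD of 0.39 in the lowest class to 0.25 in the highest. The classes by enrichment in pulldowns without siRNA, from libraries that the capture change does not use, had medians close to each other. From the least to the most enriched class with SBP-eIF4A1 the medians were -0.14, -0.13, -0.16, -0.15 and -0.13. With SBP-eIF4A2, the paralog, they were -0.14, -0.13, -0.13, -0.14 and -0.15. The most enriched class with SBP-eIF4A1 ranged from -0.33 to 0.10 over the 8 combinations, so differences of that size between classes could not have been read from these libraries.

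**Figure D4:**
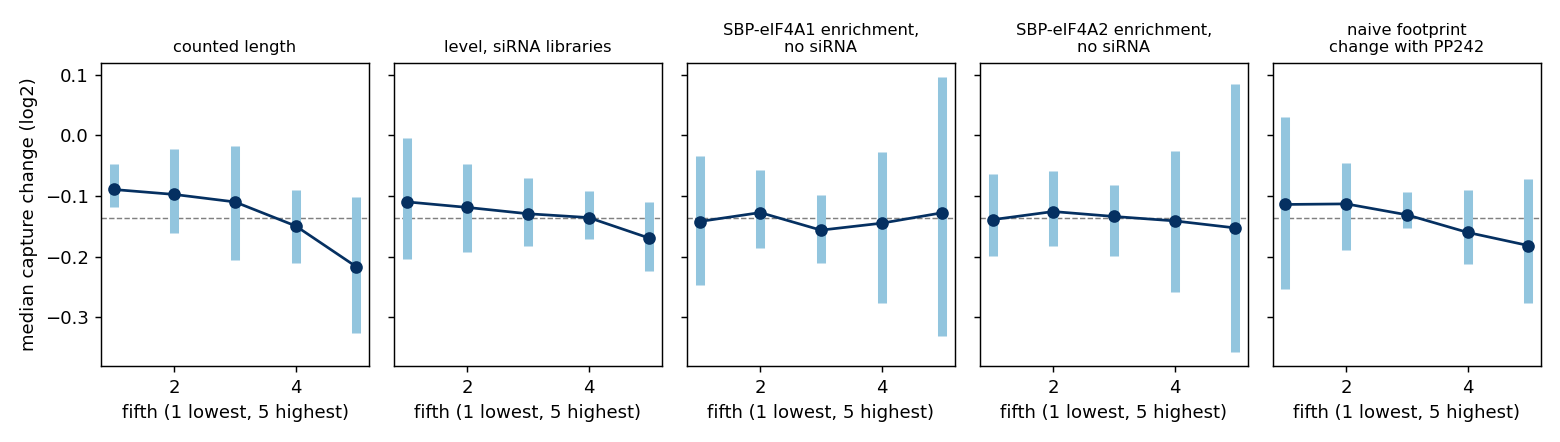
Median capture change (y axis, log2) in 5 classes of equal size, from lowest (1) to highest (5), by counted length, level in the siRNA libraries, enrichment with SBP-eIF4A1 or SBP-eIF4A2 without siRNA, and naive footprint change with PP242. Bars span the medians of the 8 single-library combinations, and the dashed line is the median of all described transcripts, -0.14; length shows the steepest course, from -0.09 to -0.22.

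The transcripts with the lowest footprint levels after PP242, relative to DMSO, were a small tail of the last property. In naive cells footprints were sequenced from 2 DMSO samples and, after 30 min of PP242, from 1 sample at 1 µM and 1 at 10 µM, and the change is the mean of both doses minus DMSO. The PP242 classes of equal size ran from -0.11 in the lowest to -0.18 in the highest. That difference of -0.07 took the other sign, 0.06, without siControl pulldown replicate 2, and was -0.18 without siControl pulldown replicate 1. Within the lowest class, however, the strongest responders differed from the rest. For transcripts whose footprints were lower by at least 1.5 log2 units the median capture change was -0.47 (271 transcripts), and for those between -1.5 and -1 it was -0.34 (262). It was -0.10 between -1 and -0.5 (551), -0.09 between -0.5 and 0, -0.15 between 0 and 0.5, and -0.18 above 0.5. The course was thus not monotonic: both strongly PP242-sensitive bins stood below all others.

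Together these bins held 533 transcripts from about 143 loci, of 547 with enough footprints and a change of -1 or lower; the other 14 had too few counts in the siRNA libraries. They are called PP242-sensitive below. Whether they are TOP mRNAs was not determined. Their median capture change was -0.39, with quartiles of -0.55 and -0.20. Relative to the median of all described transcripts it was -0.26, and 79.5% of the group lay below that median. The change lay below the overall median in all 8 combinations for 230 of them, or 43.2%, where 13.3% of all described transcripts did so. It lay above the median in all 8 for 23, or 4.32%, against 13.8%. A change of at least 1 log2 unit was seen for 1 of the 533, and it was lower.

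The group was lower with siLARP1 in the inputs and lower still in the pulldown. The share of a library's counts that the 533 transcripts took shows the shift directly. It was 24.2% and 25.1% in the siControl inputs and 18.5% and 19.8% in the siLARP1 inputs. In the siControl pulldowns it was 9.98% and 9.52%, and in the siLARP1 pulldown 5.99%. The siLARP1 libraries lay below the siControl libraries in input and in pulldown, with no overlap.

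As log2 CPM, the group's median was 8.15 and 8.24 in the siControl inputs and 7.78 and 7.92 in the siLARP1 inputs. In the pulldowns it was 6.89 and 6.82 with siControl and 6.15 with siLARP1. The median input term was -0.35 (all described transcripts 0.18) and the median pulldown term -0.76 (all described 0.06). Depletion from the pulldown was present with siControl. Median enrichment was -1.29 and -1.44 for the 2 siControl pulldowns and lower, at -1.70, for the siLARP1 pulldown. That gap includes the offset of all described transcripts, whose median enrichments were 0.40 with siControl and 0.27 with siLARP1. With TMM factors the group stood at -1.76 with siControl and -1.97 with siLARP1. The siControl pulldowns also differed from each other, and 1 siLARP1 pulldown has no measured spread. In the siControl comparison 459 of the 533 passed the test as depleted and 19 as enriched (edgeR, adjusted p under 0.05; 28.0% of all tested transcripts were depleted and 29.1% enriched).

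In the inputs 118 of the 533 fell after LARP1 siRNA and 0 rose by the same test, or 22.1% lower against 0.448% of all tested transcripts. The tested transcripts include many of lower count than this abundant group. Among the described transcripts 1.26% were called in either direction. The 118 calls depended on single libraries. They numbered 11 without siLARP1 input replicate 1, 0 without siLARP1 input replicate 2, 43 without siControl input replicate 1 and 1 without siControl input replicate 2, always in the lower direction. The DESeq2 Wald test made 271 calls in the group, the fit with a replicate block 207 and the fit with no filter 198. The fit of the 4 inputs alone made 42, and the fit with 1 transcript per locus 17. The median capture change uses no threshold, so its stability cannot be compared with that of these counts. The siLARP1 pulldown could not be left out. PP242-sensitive minus other transcripts stood at -0.26. It was -0.18 without siControl pulldown replicate 1, -0.19 without siLARP1 input replicate 2 and -0.33 without siLARP1 input replicate 1. Over the 8 combinations this difference had an SD of 0.10. The medians ran from -0.49 to -0.25 for PP242-sensitive and from -0.17 to -0.10 for other transcripts.

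**Figure D5:**
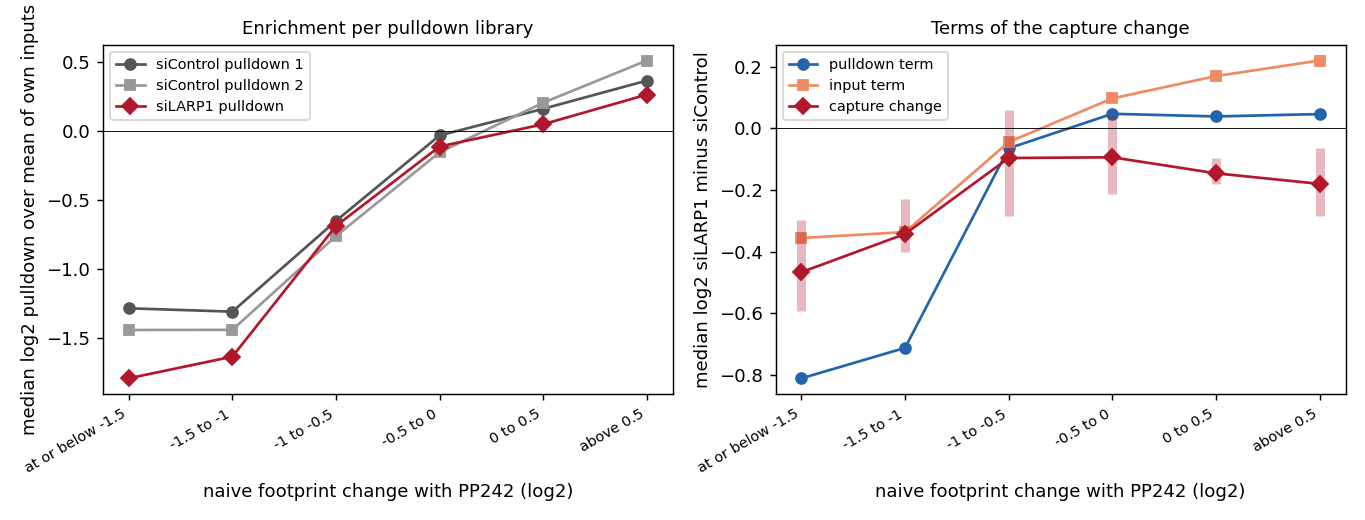
Medians over transcripts binned by their naive footprint change with PP242 (x axis, log2). Left, log2 enrichment of each pulldown library over the mean of its own inputs: in the lowest bin both siControl pulldowns lie above the siLARP1 pulldown. Right, the pulldown term, the input term and the capture change (bars span the 8 single-library combinations): the pulldown term is -0.81 in the lowest bin and the input term -0.36.

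The PP242-sensitive transcripts were also short and abundant, properties that go with the capture change or its precision. Their median length percentile was 17.9 and their median level 7.39 log2 CPM, against 53.0 and 3.62 for other transcripts with footprints. Within the shortest class they stood at -0.45 (284 transcripts) and the others at -0.08 (5196). Within the class of highest level they stood at -0.41 (474) and the others at -0.16 (7641). Among transcripts in both classes the medians were -0.48 (237) and -0.10 (582), and 51.9% against 7.90% lay below the overall median in all 8 combinations. The difference between the groups was thus about as large or larger within these classes. The classes did not match the groups on level, with medians of 7.62 and 5.33 log2 CPM in the class of highest level and 7.17 and 5.25 in both classes together. With 1 transcript kept per locus the medians were -0.41 (143) and -0.13 (9990).

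The same selection gave largely the same transcripts in EIF4A2 KO cells, and in EIF4A1 KO cells a smaller set almost all within the naive group. Each KO line had the same numbers of DMSO and PP242 footprint libraries as the naive cells. In EIF4A2 KO cells 584 described transcripts had footprints lower by at least 1 log2 unit with PP242; 88.0% of them were in the naive group, and they made up 96.4% of it. Their median capture change was -0.37, but the 70 not in the naive group had a median of -0.14, that of all described transcripts. In EIF4A1 KO cells there were 320, of which 99.4% were in the naive group and which made up 59.7% of it, with a median of -0.47; 2 were not in the naive group.

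The reference for these values differed from capture without siRNA. In cells with SBP-eIF4A1 and no siRNA, the PP242-sensitive transcripts had a median enrichment of 0.60 and 0.58 in the 2 pulldowns, where the siControl pulldowns gave -1.29 and -1.44. With SBP-eIF4A2 and no siRNA the medians were -0.001 and 0.12. Across the described transcripts, enrichment without siRNA correlated with siControl enrichment at a Spearman rho of 0.25 and with siLARP1 enrichment at 0.26. The capture change thus describes how an enrichment pattern unlike that without siRNA shifted, and the part of this difference in the result was not tested.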

How the data were processed

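The authors deposited 1 headerless file per library with whole-number counts per versioned Ensembl transcript. It also held another number per transcript, equal in all 31 files, which the deposited files do not explain; it was read as a length of the counted region and used only as a rank. STAR 2.7.0a, CASAVA 1.8 and build hg38 are listed in the submitters' processing notes, and the counting tool is not given in the sources used here. Of 94734 transcripts with a count, rows with equal counts in all 31 files were collapsed to 77343. The kit was stranded, per the labels' protocols.

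The capture change was computed on CPM, counts scaled to the same total in every library, with 0.5 counts added. The input difference and the siControl enrichment were tested with edgeR 4.0.16 (R 4.3.3): TMM, filterByExpr, glmQLFit and glmQLFTest on 1 fit of the 7 libraries with a mean per group, two-sided, Benjamini-Hochberg over 65793 transcripts, and a threshold of 0.05. The procedure was tested on simulated data. Footprint classes needed a mean of 50 counts in the 4 naive profiling libraries, and classes of enrichment without siRNA a mean of 100. For 1 transcript per locus, transcripts were taken by total count and dropped at a correlation of 0.9 or more with a kept one within 10 rows. Named transcripts were the 2 highest and 2 lowest by the capture change nearest to 0 over the 8 combinations, among those with a mean of at least 500 counts. Members, lists and tests were chosen with earlier results of these data known. The planned gene lists were not counted, because no table paired transcript IDs with symbols. Replicate spread exceeded counting noise over the described transcripts as a whole. Counting error is larger at low counts, and the lowest count of a described transcript was 4 to 16, depending on the library.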

Additional observations from a re-analysis of the deposited data

How the results depend on the processing

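Counts of transcripts past 1 log2 unit (57 higher, 128 lower) moved with most settings. They were 103 and 51 with TMM factors, 98 and 53 with DESeq2 size factors, 1086 and 1743 at a mean count of at least 10, 1 and 10 at 500, 4358 and 6142 with no filter, 13 and 37 with 1 transcript per locus, and 110 and 44 relative to the median (a setting added after the data were seen). With the siControl pulldown and input of number 1 alone there were 104 higher and 194 lower, and with number 2 alone 467 lower. Leaving out single libraries gave 55 to 125 higher and 116 to 633 lower. Past 1 log2 unit in all 8 combinations (3 higher, 9 lower), the counts were 7 and 1 with TMM, 6 and 1 with DESeq2 size factors, 1 and 1 with 5 counts added, 95 and 282 at a mean count of 10, 0 and 0 at 500, 941 and 1294 with no filter, and 1 and 1 per locus.

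The SD of the capture change (0.31) was 0.46 at a mean count of 10, 0.26 at 500, 0.79 with no filter and 0.36 with siControl number 2 alone, and 0.32 to 0.39 without single libraries. Its median (-0.14) was -0.0173 with TMM and -0.0234 with DESeq2 size factors. The difference for PP242-sensitive transcripts lay between -0.33 and -0.18 in the 11 alternatives run for it. Among these, TMM and DESeq2 size factors could not change it, and every alternative used the same siLARP1 pulldown. The differences by SBP-eIF4A1 (-0.15 to 0.17) or SBP-eIF4A2 enrichment (-0.16 to 0.12) and by PP242 class (-0.18 to 0.06) took either sign. Input calls (618, edgeR) numbered 1429 with no filter, 117 per locus, 1124 with the DESeq2 Wald test (314 higher, 810 lower), 97 when the 4 inputs were fitted alone, and 43 to 488 without single libraries, where a lone input is assumed to vary like the other groups. siControl enrichment calls (37604) were 12569 per locus and 29968 to 33606 without single libraries. Fewer transcripts are tested per locus; for the other shifts the cause was not tested.

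With a replicate block in the 4 libraries compared, input calls were 608 and siControl enrichment calls 43673. Same-numbered deviations correlated at 0.48 for siControl pulldown and input and at -0.16 for the inputs, so a crossed replicate block was added for the inputs and gave 1820 calls. No paired analysis was possible for the capture change because the siLARP1 pulldown carries no replicate number. Medians of the 5 classes were not run with no filter or per locus, and the gene lists were not run at all.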

Other observations

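A group of 64 described transcripts from about 12 loci lay apart from all others by its siControl enrichment, at -5.61 to -4.12, with 1 transcript between -4 and -3.5. The group was chosen after its values were seen. Its siLARP1 enrichment ran from -6.10 to -3.59. It was also depleted in pulldowns without siRNA, with a median of -4.26 with SBP-eIF4A1 and -4.50 with SBP-eIF4A2. The median capture change was -0.19, close to that of all described transcripts (-0.14), and 2 of the 64 lay below the overall median in all 8 combinations and 2 above it, where 13.3% and 13.8% of all described transcripts did so.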
